A study of Mus musculus with 6 samples.

Results

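The 9 genes described here are the hepatic nuclear receptor Ppara, the transcription factor Creb3l3, and Cyp4a10, Cyp4a14, Acot1, Vnn1, Pdk4, Angptl4 and Fgf21, which are textbook targets of the receptor or of fasting. They were taken by symbol from a table of 24346 gene rows, and all 9 had a row. Liver RNA came from 3 control and 3 lipophagy-induced male C57BL/6 mice (C57BL/6J in the study's methods). All 6 mice were started at 8 weeks of age on CDAHFD, a high-fat diet without choline that gives steatohepatitis, and were kept on it for 6 weeks. Each then received a single intravenous dose of an adeno-associated virus of serotype 8 whose thyroxine-binding globulin promoter restricts expression to hepatocytes, and was switched to normal chow for 2 weeks before the liver was taken. Lipophagy-induced mice carried LDTS-eLIR, a lipid droplet-targeting sequence joined to an LC3-interacting region that draws autophagosomes to the droplet. Control mice carried LDTS-LIR mut, with the same targeting sequence and a mutated LC3-interacting region. Both groups therefore expressed the droplet-targeting part, which is itself lipogenic, and an mCherry tag, and no mouse without virus or without the diet was compared here. The mice had free access to food, so fasting genes were measured here without a fasting group. The sources do not give the feeding state or the hour at which livers were taken, nor whether the livers came from separate cages. The p-values set the difference between the groups against the spread among these 6 livers only.

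PPAR-alpha, the product of Ppara, is a nuclear receptor that binds fatty acids and their derivatives, pairs with a retinoid X receptor and occupies direct repeats of AGGTCA separated by a single base. In the fasted liver it switches on mitochondrial, peroxisomal and microsomal fatty acid oxidation and the making of ketone bodies. CREBH, encoded by Creb3l3, is a membrane-bound factor of the endoplasmic reticulum that is cut free on fasting and acts with PPAR-alpha on Fgf21. The liver hormone FGF21 acts on fat and brain, and its gene answers both to PPAR-alpha and to the stress factor ATF4.

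The promoter of Fgf21 is shown because Fgf21 was the 1 member that lay lower in all lipophagy livers than in any control liver while known co-targets of the receptor lay higher. The 250 bases before its RefSeq start were read from the RefSeq promoter table of GRCm38.p6, the assembly that mm10 names, on the minus strand at chr7:45615491-45615740. Capitals mark the motifs found.
Fgf21 promoter: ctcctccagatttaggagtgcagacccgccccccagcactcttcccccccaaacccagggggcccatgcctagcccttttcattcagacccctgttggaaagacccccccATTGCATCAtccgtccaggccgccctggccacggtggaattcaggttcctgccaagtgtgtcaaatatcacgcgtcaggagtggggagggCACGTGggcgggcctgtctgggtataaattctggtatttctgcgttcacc
The first stretch of capitals is TGATGCAAT read on the opposite strand, the letters of a composite element at which ATF4 and C/EBP factors are known to bind. It begins 140 bases before the start, and 0.167% of 32851 RefSeq promoters of the same length hold it on either strand. The second is the E-box CACGTG, a palindrome, which begins 50 bases before the start and is in 6.02% of promoters.

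Both strands were also searched for copies of AGGTCA separated by 1 base, with up to 2 mismatches, which 3.24% of promoters held. The table had entries for 5 of the 9 members, and 1 of the 6 entries, the inner start of Creb3l3, held such a repeat. It lies 209 bases before that start, on the strand of the gene, at chr10:81092788-81092800.
Creb3l3 repeat: AGGGGAGAGGTCA
All letters are capitals because the whole stretch is the match. The windows of Fgf21, Ppara, Pdk4 and Acot1 and the outer start of Creb3l3 held no such repeat within 250 bases, and the last 4 of these windows held neither TGATGCAAT nor CACGTG. These are letter matches in a window and not measured binding. Angptl4, Vnn1, Cyp4a10 and Cyp4a14 had no entry.

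On GRCm38, with GENCODE gene models, Ppara is at chr15:85734983-85802819 on the plus strand and Creb3l3 at chr10:81084324-81098874 on the minus strand. Cyp4a10 (plus, chr4:115518264-115533649) and Cyp4a14 (minus, chr4:115486200-115496142) are neighbours. Acot1 is at chr12:84009490-84018371 (plus), Vnn1 at chr10:23894688-23905343 (plus), Pdk4 at chr6:5483351-5496309 (minus), Angptl4 at chr17:33773750-33781830 (minus) and Fgf21 at chr7:45613886-45615490 (minus). None of the 9 overlaps another annotated gene. Of the 100-base windows of their transcripts, 12.7% for Cyp4a10 and 21.9% for Acot1 also occur in transcripts of other genes, mostly Cyp4a32 (9.80%) and Acot2 (16.5%), so their reads may have been split with these relatives. The other 7 members shared no window.

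The table gives FPKM (fragments per kilobase of transcript, divided by the library's mapped fragments), a scale on which genes of different length can be set side by side. Depth, estimated from the steps of 1 fragment between low values, was 23.6 to 33.8 M fragments in control livers and 22.7 to 24.6 M in lipophagy livers. The liver label held in the markers: albumin (Alb) was at 35470 to 64089 FPKM. Of the 6 genes of the adipocyte list, Lep was at 0 in all 6 livers, Adipoq at 0 to 0.0395, Retn at 0 to 0.0719, Cfd at 0 to 0.425 and Adrb3 at 1.38 to 2.41 FPKM, while Car3, which is also abundant in male liver, was at 984 to 2252 FPKM. Plin1 and Optn are the genes whose mouse and human sequences were the source of the vectors' targeting sequence and LC3-interacting region. Plin1 was at 159.7, 115.7 and 119.8 FPKM in control livers 1, 2 and 3 and at 97.9, 97.9 and 81.9 in lipophagy livers 1, 2 and 3, and Optn was at 24.6 to 27.6 in all 6. They do not check the labels, since both vectors carry the same targeting sequence.

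Known targets of PPAR-alpha lay on both sides of the controls. Cyp4a10, Cyp4a14, Angptl4 and Acot1 had higher FPKM in each lipophagy liver than in any control liver, with ratios of group means of 1.59 to 2.39. Fgf21 was lower in each lipophagy liver, at 0.420 of the control mean. Ppara itself, Pdk4 and Vnn1 had overlapping livers and log2 changes between -0.19 and -0.05, and Creb3l3 overlapped with a ratio of 1.23. No member passed the adjusted test across all genes. In bulk tissue such as this, fewer cells of a type and less RNA per cell cannot be told apart.

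Of the 9 members, 0 had an adjusted p below 0.05 (limma on log2(FPKM + 1), Benjamini-Hochberg over the 11493 genes averaging 0.5 FPKM or more), against 3 of all genes tested, or 0.0261%. At an unadjusted p below 0.05, 4 members were higher and 1 was lower, where 11.5% of all genes tested were higher and 7.97% lower. The groups did not overlap, with lipophagy livers higher, for 4 members, against 15.4% of all genes, and with lipophagy livers lower for 1 member, against 10.8%. A log2 change above 0 was found for 5 of the 9, against 54.5% of all genes. The median log2 change of the members was 0.31, beside 0.02 over all genes tested. It was 0.14 without control liver 1 and 0.15 under quantile normalization. The members were chosen with results of these data known, so these counts describe them and are no independent test. A two-sided exact permutation test of 3 livers against 3 has 20 arrangements and cannot give a p below 0.1.

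**Figure D1:**
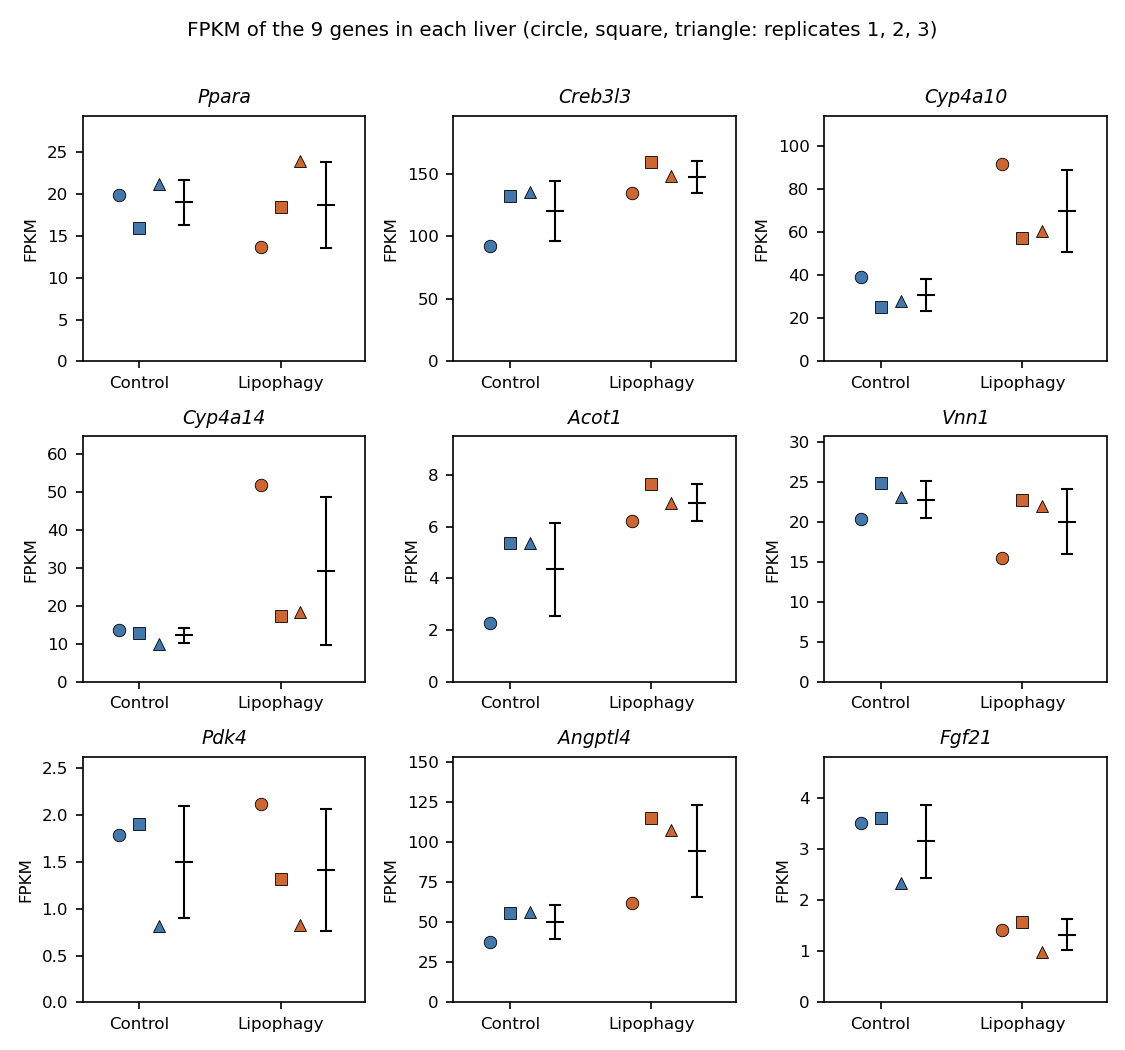
FPKM (linear axis from 0) of each of the 9 genes in control livers (blue) and lipophagy livers (orange), with circle, square and triangle for replicates 1, 2 and 3 and bars for mean ± SD (n = 3). Cyp4a10, Cyp4a14, Acot1 and Angptl4 sit higher in all lipophagy livers and Fgf21 lower, while Ppara, Creb3l3, Vnn1 and Pdk4 overlap.

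The receptor's own transcript is the first question, since its targets can be read against it. Ppara was at 19.9, 15.9 and 21.1 FPKM in control livers 1, 2 and 3 and at 13.6, 18.4 and 23.9 FPKM in lipophagy livers 1, 2 and 3. The lowest and the highest value of all 6 both belonged to lipophagy livers, so the groups overlapped fully. The means were 18.98 ± 2.71 and 18.6 ± 5.13 FPKM (SD, n = 3 each), a log2 change of -0.05 with a 95% interval of -0.48 to 0.39 (adjusted p = 0.903, limma). The interval leaves room for a difference of either sign, and the sign turned to 0.15 without lipophagy liver 1 and to 0.03 without control liver 3. Among all genes tested, the mean level of Ppara was at the 75.1 percentile.

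None of the other 20 tested genes of the PPAR family and its coregulators passed the adjusted test (limma), with 8 higher, 12 lower and a median log2 change of -0.07. Lpin1, a phosphatidate phosphatase that also coactivates PPAR-alpha, was at 5.43, 9.21 and 5.42 FPKM in control livers and at 17.8, 15.8 and 49.2 FPKM in lipophagy livers. Lpin1 lay higher in every lipophagy liver, with lipophagy liver 3 far above the rest, and had the highest log2 change of the list (1.75, 95% interval 0.84 to 2.65, adjusted p = 0.134, limma). The lowest was that of Pparg, the receptor best known from adipose tissue, at -0.23 (adjusted p = 0.390, limma) with overlapping livers. Rxra, the main retinoid X receptor of liver, was at 49.6 to 55.0 FPKM in control livers and at 52.3 to 55.4 in lipophagy livers.

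Creb3l3 had the highest FPKM of the 9 members and stood at the 94.1 percentile of tested genes. It was at 92.2, 132.0 and 135.1 FPKM in control livers 1, 2 and 3 and at 134.4, 159.6 and 147.9 FPKM in lipophagy livers 1, 2 and 3. Control liver 1 lay well below the rest, and lipophagy liver 1 lay within the span of the controls. The means were 119.8 ± 23.9 and 147.3 ± 12.6 FPKM (SD, n = 3 each; two-sided exact permutation test, p = 0.2). Its log2 change of 0.31 (95% interval -0.04 to 0.66, adjusted p = 0.293, limma) was 0.14 without control liver 1.

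Of the 15 tested relatives, proteases and targets of CREBH, 7 were higher and 8 lower, with a median log2 change of 0.00 and none past the adjusted test (limma). Cidec, which fuses lipid droplets and is also a target of PPAR-alpha and PPAR-gamma, had the lowest log2 change of the list. It was at 5.76, 6.61 and 6.29 FPKM in control livers and at 0.818, 1.61 and 2.72 in lipophagy livers, with no overlap (log2 change -1.47, 95% interval -1.99 to -0.95, adjusted p = 0.0897, limma). Apoa4, an apolipoprotein gene that CREBH is known to drive, stood at 373, 575 and 568 FPKM in control livers and 208, 266 and 168 in lipophagy livers, also with no overlap (log2 change -1.23). The highest was Tfrc, the transferrin receptor, at 0.24. Among the Creb3 relatives, Creb3, Creb3l1 and Creb3l2 had log2 changes of 0.11, -0.18 and -0.13, and Creb3l4 was below the filter.

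Cyp4a10 and Cyp4a14 are microsomal omega-hydroxylases of fatty acids and are among the genes that respond most to PPAR-alpha agonists in mouse liver. Cyp4a10 was at 39.1, 25.0 and 28.0 FPKM in control livers 1, 2 and 3 and at 91.4, 57.4 and 60.4 FPKM in lipophagy livers 1, 2 and 3. The lowest lipophagy liver was above the highest control liver. Means were 30.7 ± 7.41 and 69.7 ± 18.8 FPKM (SD, n = 3 each), a ratio of 2.27, at the smallest p of the exact permutation test, 0.1. On the log2 scale the change was 1.15 (95% interval 0.67 to 1.63, adjusted p = 0.112, limma), and it lay between 0.94 and 1.33 under the 15 other settings tried.

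Cyp4a14 was at 13.8, 12.9 and 9.97 FPKM in control livers 1, 2 and 3 and at 51.8, 17.5 and 18.5 FPKM in lipophagy livers 1, 2 and 3. Lipophagy liver 1, also the highest for Cyp4a10, stood far above the other 5 livers, and the groups did not overlap. The means were 12.2 ± 2.01 and 29.3 ± 19.5 FPKM (SD, n = 3 each), a ratio of 2.39 (exact permutation test, p = 0.1). The log2 change of 1.03 (95% interval 0.18 to 1.87, adjusted p = 0.204, limma) was 0.53 without lipophagy liver 1.

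The other Cyp4a genes did not share a single pattern. Cyp4a12a, the form high in male mice, was at 54.6, 87.3 and 80.8 FPKM in control livers and at 125.3, 122.7 and 114.5 in lipophagy livers, with no overlap (log2 change 0.72, 95% interval 0.35 to 1.10, adjusted p = 0.134, limma). Cyp4a12b, Cyp4a31 and Cyp4a32 had log2 changes of 0.04, -0.01 and 0.03 with overlapping livers, and Cyp4a29 and Cyp4a30b were listed at 0 in all 6. Cyp4a12a and Cyp4a12b are near-identical copies whose reads may have been split. Cyp4a31 and Cyp4a32 are the genes with which Cyp4a10 shares sequence. Summed FPKM of Cyp4a10 and Cyp4a14 made up 38.9%, 21.5% and 23.2% of the sum over all Cyp4a genes in the controls, by replicate, against 48.2%, 30.2% and 32.7% in the lipophagy livers. These shares overlapped, since control liver 1 had a higher share than lipophagy livers 2 and 3. The other Cyp4a genes summed to 83.1, 138.3 and 125.5 FPKM in the controls, by replicate, against 153.8, 173.4 and 162.2 in the lipophagy livers. A list of microsomal fatty acid hydroxylases other than the members had 14 tested genes. It also holds the P450 reductase gene Por (log2 change 0.24) and the aldehyde dehydrogenase gene Aldh3a2 (-0.25), which are not hydroxylases. Of the 14 genes, 9 were higher and 5 lower, with a median log2 change of 0.07. At an unadjusted p below 0.05 (limma), 3 were higher and 1 lower, beside 11.5% and 7.97% of all genes. The lowest was Cyp4f18, at 1.88 to 2.28 FPKM in control livers and 0.655 to 1.33 in lipophagy livers (log2 change -0.58, adjusted p = 0.134, limma).

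**Figure D2:**
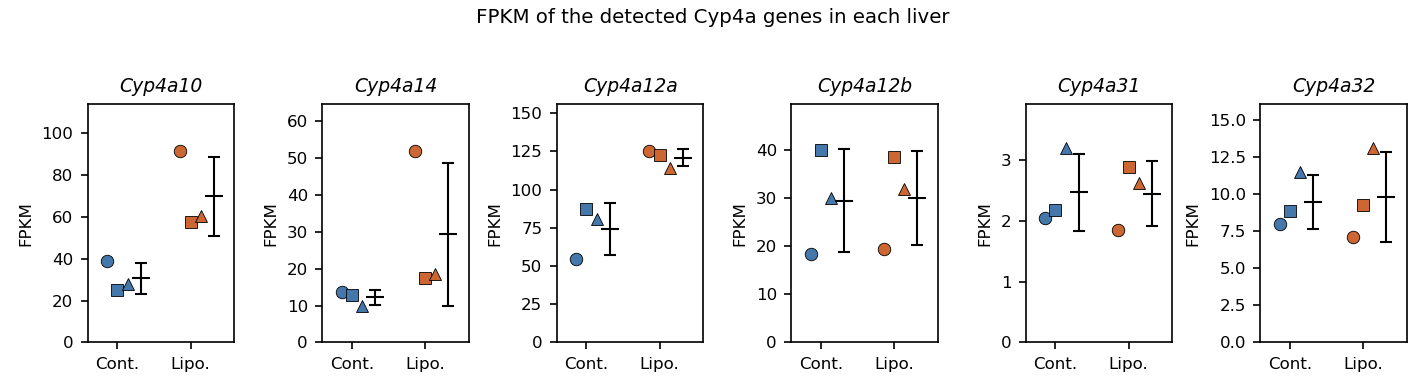
FPKM (linear axes from 0, a scale for each gene) of the 6 detected Cyp4a genes in control (blue) and lipophagy (orange) livers, circle, square and triangle for replicates 1, 2 and 3, with mean ± SD (n = 3). Cyp4a10, Cyp4a14 and Cyp4a12a are higher in every lipophagy liver, and Cyp4a12b, Cyp4a31 and Cyp4a32 overlap.

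Acot1 encodes a cytosolic thioesterase that splits long-chain acyl-CoA into free fatty acid and coenzyme A. It was at 2.27, 5.38 and 5.38 FPKM in control livers 1, 2 and 3 and at 6.21, 7.63 and 6.93 FPKM in lipophagy livers 1, 2 and 3. All lipophagy livers were above the controls, and control liver 1 lay far below the other 5. The means were 4.34 ± 1.79 and 6.92 ± 0.708 FPKM (SD, n = 3 each), a ratio of 1.59 (exact permutation test, p = 0.1). The log2 change was 0.63 (95% interval 0.07 to 1.19, adjusted p = 0.223, limma), and without control liver 1 it was 0.31.

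Acot2, the mitochondrial relative with which Acot1 shares sequence, was at 1.40 to 1.76 FPKM in control livers and at 0.938 to 1.52 in lipophagy livers (log2 change -0.18, adjusted p = 0.415, limma). Acot1 and Acot2 summed to 3.75, 6.77 and 7.14 FPKM in control livers and to 7.55, 8.56 and 8.44 in lipophagy livers. The sum, too, was higher in every lipophagy liver, with a ratio of 1.39. Acot3 and Acot4, the peroxisomal relatives, had log2 changes of 0.31 and 0.10 with overlap. Among the 9 other acyl-CoA thioesterases tested, 7 were higher, with a median of 0.18, from -0.20 for Acot9 to 0.40 for Acot11, and none passed the adjusted test (limma).

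Vnn1 encodes the pantetheinase vanin 1, an enzyme on the cell surface that splits pantetheine into pantothenate, the precursor of coenzyme A, and cysteamine. It was at 20.4, 24.9 and 23.1 FPKM in control livers 1, 2 and 3 and at 15.5, 22.7 and 22.04 FPKM in lipophagy livers 1, 2 and 3. Lipophagy liver 1 was the lowest, and the remaining livers overlapped. The means were 22.8 ± 2.30 and 20.1 ± 4.01 FPKM (SD, n = 3 each; exact permutation test, p = 0.4). The log2 change of -0.19 (95% interval -0.53 to 0.15, adjusted p = 0.490, limma) was -0.02 without lipophagy liver 1. Its paralog Vnn3 had a log2 change of 0.05. Of 11 tested genes of pantetheine and coenzyme A metabolism besides Vnn1, 10 were higher and 1 lower (median 0.13), from -0.07 for the biotinidase gene Btd to 0.37 for Nudt7, whose product breaks down coenzyme A in peroxisomes.

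Pdk4 encodes a pyruvate dehydrogenase kinase that holds back glucose oxidation during fasting. It was at 1.79, 1.90 and 0.814 FPKM in control livers 1, 2 and 3 and at 2.11, 1.31 and 0.825 FPKM in lipophagy livers 1, 2 and 3. Replicate 3 of each group was the lowest of its group, and the groups overlapped. The means were 1.50 ± 0.597 and 1.42 ± 0.651 FPKM (SD, n = 3 each; exact permutation test, p = 1). This was the lowest-expressed member, at the 18.3 percentile of tested genes and with an estimated 67.8 to 166 fragments a liver. Its log2 change of -0.05 (95% interval -0.58 to 0.48, adjusted p = 0.918, limma) turned to 0.03 under quantile normalization to 0.04 or 0.07 when control liver 1 or 2 was left out, and to 0.13 when lipophagy liver 3 was.

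The other kinases Pdk1 and Pdk2 had log2 changes of 0.43 (overlapping livers) and 0.20 (no overlap), and Pdk3 was below the filter. Pdk2, the most abundant kinase of the family here, was at 30.3 to 35.02 FPKM in control livers and at 36.5 to 38.4 in lipophagy livers. All 11 tested genes of a list of pyruvate metabolism were higher, namely the complex and its kinases and phosphatases without Pdk4, and the pyruvate carriers Mpc1 and Mpc2 and the carboxylase gene Pcx, with a median log2 change of 0.20, none past the adjusted test (limma). They ran from 0.08 for Dlat to 0.59 for Pdhb, both subunits of the complex. Pdhb was at 75.7, 91.8 and 79.6 FPKM in control livers and at 148.3, 111.1 and 115.0 in lipophagy livers.

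Angptl4 encodes a secreted inhibitor of lipoprotein lipase. It was at 37.8, 55.5 and 56.6 FPKM in control livers 1, 2 and 3 and at 61.9, 114.8 and 107.4 FPKM in lipophagy livers 1, 2 and 3. The lowest lipophagy liver lay just above the highest control liver, and the other 2 lay far above. The means were 50.0 ± 10.6 and 94.7 ± 28.6 FPKM (SD, n = 3 each), a ratio of 1.89 (exact permutation test, p = 0.1). The log2 change was 0.88 (95% interval 0.31 to 1.45, adjusted p = 0.157, limma) and ranged from 0.70 to 1.16 under the 15 other settings. Under quantile normalization the livers of the groups overlapped for Angptl4.

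Of 11 other tested genes of lipoprotein lipase control, 9 were higher and 2 lower, with a median log2 change of 0.17 and none past the adjusted test (limma). Angptl8, listed under its older symbol Gm6484 and known to be induced by feeding, was at 22.2, 73.8 and 48.5 FPKM in control livers and at 56.6, 81.8 and 423 in lipophagy livers. The groups overlapped for Angptl8, and its log2 change of 1.52 (95% interval -0.14 to 3.17) was the highest of the list. Lipophagy liver 3 was far above the other 5. Angptl2 and Angptl6 had log2 changes of -0.03 and 0.30 with overlap, and Angptl1 and Angptl7 were below the filter. Lpl, the lipase itself, had the lowest log2 change of the list, -0.31, with overlap.

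Fgf21 was the 1 member that was lower in the lipophagy livers with no overlap between the groups. It was at 3.52, 3.61 and 2.34 FPKM in control livers 1, 2 and 3 and at 1.41, 1.58 and 0.986 FPKM in lipophagy livers 1, 2 and 3. The highest lipophagy liver was below the lowest control liver. The means were 3.16 ± 0.709 and 1.33 ± 0.305 FPKM (SD, n = 3 each), a ratio of 0.420 (exact permutation test, p = 0.1). These levels stand on few fragments, an estimated 74.7, 68.2 and 63.4 in the controls, by replicate, against 26.7, 28.7 and 19.5 in the lipophagy livers. The log2 change of -0.83 (95% interval -1.18 to -0.49, adjusted p = 0.111, limma) lay between -1.19 and -0.72 under the 15 other settings.

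Among the receptors of FGF21 and related hormones, 5 of 8 tested genes were higher and 3 lower, none past the adjusted test (limma). Klb, the coreceptor beta-klotho, was at 3.61 to 4.44 FPKM in control livers and at 4.12 to 5.56 in lipophagy livers, with overlap. Fgfr3 had the lowest log2 change of the list, at 7.82 to 7.997 FPKM in control livers and 5.98 to 6.50 in lipophagy livers (-0.31, adjusted p = 0.134, limma). Gdf15, a stress hormone often measured beside FGF21, lay on the opposite side of Fgf21: it was at 9.31, 17.5 and 7.75 FPKM in control livers and at 27.7, 25.8 and 20.8 in lipophagy livers, with no overlap (log2 change 1.11, adjusted p = 0.134, limma).

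ATF4 is a further known regulator of Fgf21, and the letters of its element are in the Fgf21 promoter. Of 15 tested genes of an ATF4 list, which counts Atf4 itself (log2 change 0.19), 9 were higher and 6 lower. The median log2 change was 0.15, and none passed the adjusted test (limma). At an unadjusted p below 0.05 (limma), 1 was higher and 2 lower, beside 11.5% and 7.97% of all genes. With no overlap between the groups, 1 was higher and 3 lower, beside 15.4% and 10.8% of all genes. Atf3, a stress factor, was at 5.55, 7.01 and 8.93 FPKM in control livers and at 3.98, 4.65 and 4.98 in lipophagy livers, the lowest log2 change of the list (-0.54, adjusted p = 0.156, limma). The highest was Ddit4, an inhibitor of mTORC1, at 0.45 with overlapping livers.

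**Figure D3:**
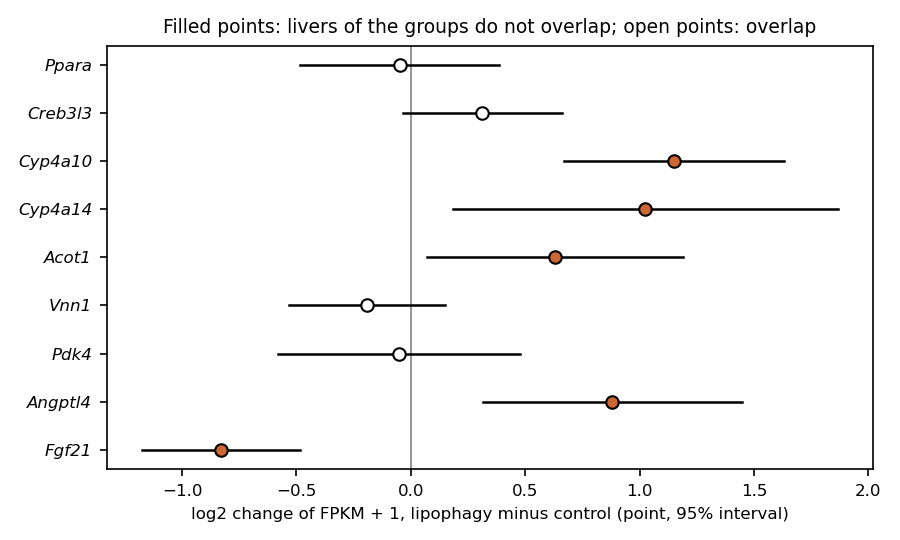
Log2 change of FPKM + 1 (horizontal axis, lipophagy minus control) for the 9 genes, with the 95% interval of the limma model as lines. Filled points mark genes whose livers did not overlap between groups. Cyp4a10, Cyp4a14, Angptl4 and Acot1 have intervals above 0, Fgf21 has one below 0, and Ppara, Creb3l3, Vnn1 and Pdk4 have intervals that span 0.

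Other genes that PPAR-alpha is known to control were examined in 4 lists, in none of which a gene passed the adjusted test (limma). Of 24 tested mitochondrial targets, 19 were higher and 5 lower, with a median log2 change of 0.23, and 12 were higher and 0 lower at an unadjusted p below 0.05, where all genes tested gave 11.5% and 7.97%. Cpt1a, the carnitine palmitoyltransferase by which fatty acids enter mitochondria, had the lowest log2 change of the list and overlapped (-0.30), and Eci2, an enoyl-CoA isomerase, had the highest (0.36).

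Of 17 tested peroxisomal targets, 15 were higher and 2 lower, with a median of 0.15, and 2 were higher and 0 lower at that threshold, a share of higher genes near the 11.5% of all genes. The highest was Ech1, a dienoyl-CoA isomerase, at 0.37 and the lowest Crat, carnitine acetyltransferase, at -0.28 with overlap. Ehhadh, the bifunctional enzyme of peroxisomal beta-oxidation, did not overlap between groups (log2 change 0.21). The 27 tested targets of lipid droplets and lipid transport were split, with 15 higher and 12 lower and a median of 0.08, and with 5 higher and 4 lower at the unadjusted threshold, beside the same 11.5% and 7.97%. In that list G0s2, an inhibitor of the lipase ATGL, was highest at 1.09 with overlapping livers, and Cidec was lowest. Fabp1, the fatty acid-binding protein of liver, was at 11452 to 13745 FPKM in control livers and at 17424 to 17763 in lipophagy livers (log2 change 0.48, adjusted p = 0.135, limma). Plin2, the coat protein of hepatocyte lipid droplets and likewise a target, was at 180.4 to 213.0 FPKM in control livers and at 156.3 to 175.5 in lipophagy livers (-0.31, adjusted p = 0.182, limma). Retsat, a retinol saturase, was at 64.0 to 73.0 and at 102.3 to 133.6 FPKM (0.71, adjusted p = 0.0915, limma). Ehhadh, Fabp1, Plin2, Retsat and Apoa4 are named outside the rule for named genes and were chosen after their values were seen. So were Rxra, Klb, Tat, Pklr, Per1, Alb, Lep, Adipoq, Retn and Cfd, and also Atf4, Por, Aldh3a2, Hba-a1 and Hbb-b1.

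Genes of fasting and of feeding were set side by side with the members. Of 22 tested genes driven by glucagon, glucocorticoid or FOXO factors, 17 were higher and 5 lower (median 0.39, and 8 higher and 1 lower at an unadjusted p below 0.05, beside 11.5% and 7.97% of all genes). All 13 tested genes of the fed state, which fall on fasting, were also higher, with a median of 0.47 and with 8 higher and 0 lower at the same threshold. Neither list held a gene past the adjusted test (limma). With no overlap between the groups, 6 genes of the fasting list were higher and 1 lower, beside 15.4% and 10.8% of all genes. In the fed-state list 6 were higher and 0 lower with no overlap. Tat, a glucocorticoid target, was at 337, 488 and 240.5 FPKM in control livers and at 803, 390 and 1004 in lipophagy livers, and the groups overlapped. The highest of the fasting list was Lpin1. Gadd45g, a growth arrest gene, had the lowest log2 change, at 41.3, 11.9 and 35.6 FPKM in control livers and 7.12, 4.41 and 6.59 in lipophagy livers (-1.97, adjusted p = 0.124, limma). Thrsp, a lipogenic gene raised by carbohydrate, was at 124, 172 and 85.1 FPKM in control livers and at 802, 284 and 818 in lipophagy livers (log2 change 2.22, 95% interval 1.26 to 3.18, adjusted p = 0.116, limma). Pklr, the liver pyruvate kinase, was also higher in each lipophagy liver (1.05, adjusted p = 0.124, limma), and Mlxipl, the carbohydrate-sensing factor ChREBP, had the lowest value of the fed-state list, 0.03.

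**Figure D4:**
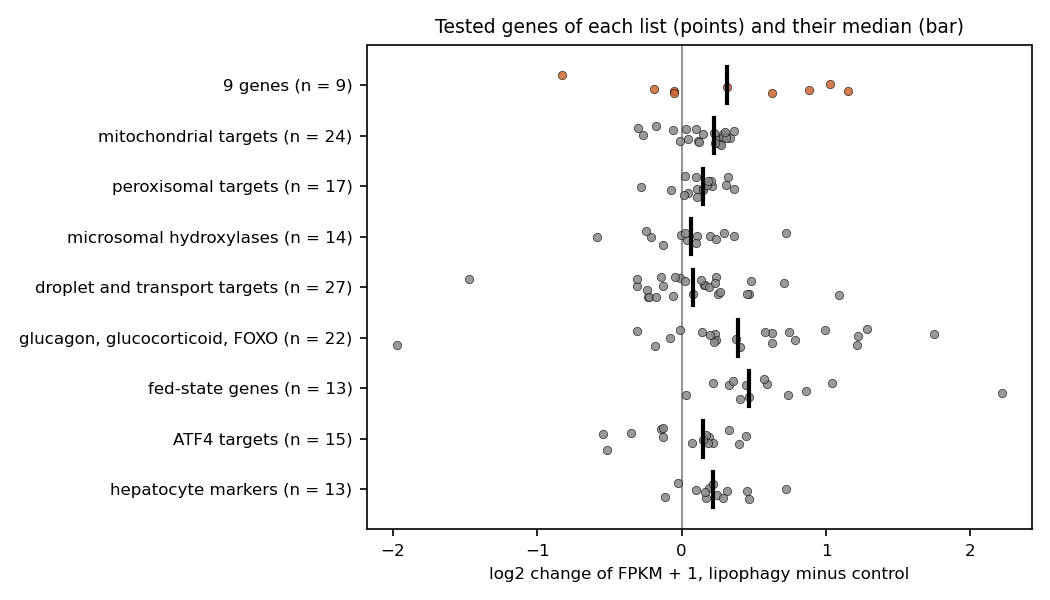
Log2 change of FPKM + 1 (horizontal axis, lipophagy minus control) of each tested gene (points) in the 9 members (orange) and 8 other lists (grey), with the median of each as a bar. The median of the members is 0.31 (0.14 without control liver 1 and 0.15 under quantile normalization), and they spread from -0.83 to 1.15. The medians are 0.23 for mitochondrial targets, 0.39 for glucagon, glucocorticoid and FOXO genes and 0.47 for fed-state genes. They are 0.15 for peroxisomal targets, 0.07 for the microsomal hydroxylase list and 0.08 for droplet and transport targets. For ATF4 targets the median is 0.15 and for hepatocyte markers 0.22.

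The livers differed among themselves in ways that crossed the groups. Lipophagy liver 1 was the highest of the 6 for Cyp4a10, Cyp4a14 and Pdk4 and the lowest for Ppara and Vnn1. Lipophagy liver 2 was the highest for Angptl4, Acot1 and Creb3l3, and control liver 1 was the lowest for the same 3 genes. Lipophagy liver 3 was the highest for Ppara and the lowest for Fgf21. Clock genes also set lipophagy liver 3 apart: Ciart, a repressor of the clock, was at 35.5 FPKM there and at 2.46 to 4.76 in the other 5 livers, and Per1 was at 8.71 against 1.76 to 3.28. Over the 16 clock genes tested, 10 were higher and 6 lower, with a median of 0.09 and summed levels of 166 to 206 FPKM in control livers and 168 to 297 in lipophagy livers. The part of the clock genes in the values of the members was not tested. Without lipophagy liver 3, the 4 higher members and Fgf21 had log2 changes of 1.24 (Cyp4a10), 1.25 (Cyp4a14), 0.77 (Angptl4), 0.63 (Acot1) and -0.72 (Fgf21).

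Summed marker levels did not overlap between the groups for hepatocytes, stellate cells, lymphocytes and neutrophils, and the adipocyte list, and overlapped for macrophages, bile duct, endothelium and red cells. Of 13 tested hepatocyte markers, 11 were higher, with a median log2 change of 0.22 and summed levels of 67949 to 74652 FPKM in control livers and 81936 to 105982 in lipophagy livers. Stellate cell markers were lower for 9 of 10 (median -0.33, summed levels 168 to 182 against 134 to 163 FPKM), and macrophage markers for 9 of 12 (median -0.21, 721 to 967 against 708 to 868). All 5 tested bile duct markers were lower (median -0.46, 6.85 to 14.02 against 4.89 to 11.2 FPKM), as were 4 of 5 lymphocyte and neutrophil markers (median -0.26, 23.2 to 34.7 against 19.2 to 22.03). Of 8 endothelial markers, 6 were higher (median 0.09, 32.4 to 38.9 against 37.9 to 54.9 FPKM). All 6 tested red cell genes were higher (median 1.12), with overlapping summed levels of 109 to 136 and 122 to 483 FPKM. Lipophagy liver 2 stood far above the rest for Hba-a1 and Hbb-b1, at 141 and 191 FPKM. In the other livers of both groups Hba-a1 was at 14.7 to 28.9 FPKM and Hbb-b1 at 14.3 to 35.7. On the adipocyte list 2 genes were tested, Car3 (log2 change 0.72) and Adrb3 (-0.25), and the summed level of the list, nearly all of it Car3, was 986 to 1520 against 1629 to 2254 FPKM. No gene of these lists passed the adjusted test (limma), and their part in the values of the members was not tested.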

How the data were processed

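Poly(A) RNA of 3 control and 3 lipophagy livers was sequenced in 100-base paired-end mode from stranded libraries, on a HiSeq instrument according to the labels and on a NovaSeq instrument according to the study's methods. The authors deposited 1 table of FPKM values per gene symbol and liver, scaled by them to transcript length and mapped fragments. The submitters' processing notes name TopHat2 2.0.13, Bowtie2 2.2.3, SAMtools 0.1.19, Cufflinks 2.2.1 and the build mm10, without their roles. The annotation is not given in the sources used here. Groups and replicate numbers came from the sample titles.

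From the FPKM, log2(FPKM + 1) was computed. This scale understates the change of low genes. Genes averaging 0.5 FPKM or more, 11493 in all, were fitted with limma 3.58.1 (moderated variance with an intensity trend, no covariate, two-sided) in R 4.3.3, with p-values adjusted over all of these genes (Benjamini-Hochberg) and a threshold of 0.05. Of 24346 rows, 7161 were at 0 in all livers. All 9 members passed the filter. Single values were compared by a two-sided exact permutation test. The fit was checked on simulated data with known changes.

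Depth was estimated from low FPKM values, 75.7% to 83.2% of which lay on whole-fragment steps, with GENCODE transcript lengths less a fragment length of 150. Fragment numbers depend on this length and cover counting error only. Promoters came from RefSeq. Sequence matches and figures used Python 3.11.15 with numpy 2.4.6, pandas 2.3.3 and, for plotting, matplotlib 3.10.9.

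The members and the 23 gene lists were chosen with earlier results of these data known. Named genes were the members, the highest and the lowest tested gene of each list, relatives of members, Plin1 and Optn, and others that the text says were picked with their values in view. Not every gene the rule names is reported here. Alternatives were pseudocounts of 0.1 and 0.5, the replicate number as a block, quality weights, a filter at 1 FPKM or none, a variance prior with no trend, equal medians, quantile normalization, and leaving out each liver in turn.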

Additional observations from a re-analysis of the deposited data

How the results depend on the processing

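Under the 9 settings that keep all 6 livers and the 6 that leave one out, Cyp4a10, Cyp4a14, Angptl4, Acot1 and Creb3l3 kept a log2 change above 0 and Fgf21 and Vnn1 one below 0. The small log2 change of Ppara (-0.05) was 0.029 without control liver 3 and 0.15 on leaving out lipophagy liver 1 (-0.24 to 0.15 with each liver left out in turn). That of Pdk4 (-0.05) was 0.028 under quantile normalization, 0.042 without control liver 1, 0.070 without control liver 2 and 0.13 when lipophagy liver 3 was left out (-0.27 to 0.13). The median log2 change of the members, 0.31, was 0.15 under quantile normalization and 0.14 to 0.41 with each liver left out, the lowest without control liver 1. Members higher in every lipophagy liver numbered 4, but 3 under quantile normalization, where Angptl4 overlapped, and 5 with equal medians, without control liver 3 or on leaving out lipophagy liver 1, where Creb3l3 no longer overlapped. Members lower in every lipophagy liver numbered 1 to 2, the second being Vnn1 without control liver 1. Members past the adjusted test (limma) numbered 0, and 1 with a quality weight for each liver, Cyp4a10 (adjusted p = 0.0462). Genes of the lists past the test numbered 0, and 4 with quality weights and 0 to 3 with each liver left out (2, 1 and 3 on dropping control liver 2, lipophagy liver 2 and lipophagy liver 3). Over all genes, 3 passed, against 1 with no filter on low values, 39 with quality weights and 1 to 11 with each liver left out (1 and 7 on dropping control livers 3 and 2, and 5 and 11 on dropping lipophagy livers 2 and 3). The causes were not tested.

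The sample titles do not say whether the replicate numbers pair the livers of the groups, and the few correlations available cannot decide it. Deviations from the group means correlated at 0.25, 0.23 and -0.06 for replicates 1, 2 and 3. Livers with unlike numbers correlated at -0.39 to 0.25, and control liver 3 correlated best with lipophagy liver 2 (0.25). With the replicate number as a block, 3 members passed the test (Cyp4a10, Fgf21 and Angptl4, adjusted p = 0.00461, 0.0199 and 0.0211, limma), as did 8 genes of the lists and 43 of all genes. The levels of Fgf21 and Pdk4 stand on few fragments, and 3 livers a group limit the precision of all values.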
